A study of Mus musculus with 18 samples.

Results

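Long noncoding RNA loci were compared between day 56 elST libraries and day 35 rST libraries, and each elST library was set against the rST libraries on its own because the 3 differ. The compared set held every locus at 1 FPKM or more in at least 3 of the 6 libraries, which left 2678 of the 13218 loci in the table (20.3%). FPKM counts sequenced fragments per kilobase of transcript and per set number of mapped fragments. Of these loci, 713 reached 1 FPKM in exactly 3 libraries, 1182 in 4, 230 in 5 and 553 in all 6, and 808 further loci reached it in only 2 and were left out. At the edge of the rule, Jpx had 1.0006 FPKM in its third-highest library and was kept, and 4930535G08Rik had 0.99991 and was not.

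The cells came from testes of ICR mice, an outbred strain, and carried no transgene or deletion that the labels name. The rST cells were taken at postnatal day 35 and the elST cells at day 56, each type in 3 libraries, and both were separated by STA-PUT, a sedimentation method in which larger cells sink faster. The labels do not spell out rST and elST, which in the field usually stand for round and elongating spermatids, and they give no purity. RNA was extracted with Trizol and libraries were made with an unstranded TruSeq kit. Where a locus and a coding gene share exon sequence on opposite strands, their reads cannot be told apart. The series text speaks of duplicate sequencing, whereas the labels number 3 libraries of each type, and all 3 were taken as n = 3. No label says whether they came from separate animals or which of them might be repeats, so p-values cover the spread between libraries alone, and that spread may be technical.

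Spermatids are haploid cells that no longer divide. During elongation they replace histones first with transition proteins and then with protamines, the nucleus condenses, and transcription shuts down, so that many late proteins are made from messages stored earlier. Testis germ cells are known for the large number of long noncoding RNAs they transcribe, and the cyclic AMP response element, which the spermatid factor CREM binds, is a known feature of many spermatid promoters.

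Start site windows of 5 members are shown here, since the comparison turns on these loci and on groups they belong to (RefSeq, GRCm38.p6, 250 bases before to 50 after the start, 5′ to 3′ on the strand of the locus). The first is the second listed start of the locus that lies across Tnp1, on the plus strand at chr1:73024336-73024635. 4930571K23Rik, one of the highest loci in rST 2 and rST 3, starts within chr7:125368611-125368910 on the plus strand. 2410006H16Rik, whose 3 elST values all lay above its 3 rST values, starts within chr11:62602627-62602926 on the plus strand. Gm33308, highest in elST 2, starts within chr12:32246015-32246314 on the plus strand, and the snoRNA host gene Snhg15 starts within chr11:6528711-6529010 on the minus strand. Capitals mark the full response element TGACGTCA or, where that is missing, its core TGACGT, read on both strands.
1700027A15Rik: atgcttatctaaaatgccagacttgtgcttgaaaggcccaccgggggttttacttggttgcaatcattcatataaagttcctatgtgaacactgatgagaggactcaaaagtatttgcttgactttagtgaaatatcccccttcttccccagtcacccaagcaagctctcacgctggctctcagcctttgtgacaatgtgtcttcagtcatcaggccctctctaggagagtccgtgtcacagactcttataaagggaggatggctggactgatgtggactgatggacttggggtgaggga
4930571K23Rik: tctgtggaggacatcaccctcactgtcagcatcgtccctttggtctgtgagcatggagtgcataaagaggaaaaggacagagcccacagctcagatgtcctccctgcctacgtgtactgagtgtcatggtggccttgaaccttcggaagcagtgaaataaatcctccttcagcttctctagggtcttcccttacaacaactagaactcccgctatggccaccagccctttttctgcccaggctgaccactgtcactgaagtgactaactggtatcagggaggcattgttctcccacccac
2410006H16Rik: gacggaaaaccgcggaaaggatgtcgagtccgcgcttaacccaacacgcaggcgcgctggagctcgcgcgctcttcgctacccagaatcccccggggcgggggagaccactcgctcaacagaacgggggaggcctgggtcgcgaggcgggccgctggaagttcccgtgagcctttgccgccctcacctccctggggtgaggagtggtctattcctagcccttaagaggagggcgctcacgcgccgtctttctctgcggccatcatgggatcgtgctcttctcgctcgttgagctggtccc
Gm33308: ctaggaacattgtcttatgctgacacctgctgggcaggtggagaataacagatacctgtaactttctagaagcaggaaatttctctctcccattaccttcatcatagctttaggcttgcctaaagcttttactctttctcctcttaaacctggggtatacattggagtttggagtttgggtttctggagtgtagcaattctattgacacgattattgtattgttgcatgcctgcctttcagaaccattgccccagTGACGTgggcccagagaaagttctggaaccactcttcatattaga
Snhg15: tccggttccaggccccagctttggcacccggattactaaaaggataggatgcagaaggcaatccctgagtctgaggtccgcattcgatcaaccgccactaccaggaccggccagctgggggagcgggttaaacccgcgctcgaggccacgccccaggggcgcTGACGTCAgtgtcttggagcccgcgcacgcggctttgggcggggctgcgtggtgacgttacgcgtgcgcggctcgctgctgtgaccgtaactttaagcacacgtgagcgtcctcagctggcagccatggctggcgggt

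Among these windows TGACGTCA stood only in that of Snhg15, which holds a further TGACGT elsewhere in small letters, and TGACGT alone stood in that of Gm33308. RefSeq promoters of the same length were found for 1156 of the member symbols, 1413 windows in all. TGACGT was present in 9.2% of those windows and in 7.51% of all 32851 windows in the RefSeq table, and TGACGTCA, which contains it, in 2.69% and 1.79%. Among groups described further on, TGACGT stood in 11.7% of the 94 windows of loci above all rST libraries in elST 2 and in 9.86% of the 213 windows of those above in elST 3. A further group held 73 windows of loci high in rST 2, rST 3, elST 2 and elST 3 and near 0 in both replicates 1. TGACGT stood in 3 of these windows (4.11%) and TGACGTCA in 1 (1.37%). Counts this small do not set the shares apart from those of all windows. These shares describe letters in a window, not binding.

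By GENCODE M21, the annotation with the same positions as the table, the members were mainly lincRNAs (1086) and antisense loci (811), with 331 models of the provisional TEC class, 271 processed transcripts, 83 bidirectional promoter transcripts and 52 sense intronic loci. A further 30 members, Srsx among them, are typed as protein coding. Exons of 798 members (29.8%) overlapped an exon of a coding gene on the other strand, and 1377 (51.4%) overlapped no coding gene. Depth, inferred from the FPKM steps, lay between 34.4 and 65.1 M fragments (mega) per library.

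Replicate 1 of each type stood apart from the others. The library labelled rST 1 had 1022 members at 1 FPKM or more and 767 at 0, and the library labelled elST 1 had 1118 and 511. In the other 4 libraries, 2194 to 2463 members reached 1 FPKM and 9 to 27 were at 0. The rule for members uses these same 6 libraries and leaves out loci that reached 1 FPKM in rST 1 and elST 1 alone. These counts, and the r values that follow, can therefore partly reflect the rule. Over the whole table, 1591 and 1695 loci reached 1 FPKM in rST 1 and elST 1, and 2491 to 2809 in the other libraries. Across the 2678 members, Pearson's r of log2(FPKM + 1) was 0.98 between rST 1 and elST 1, and 0.04 and -0.01 between rST 1 and the other rST libraries. It was 0.93 between rST 2 and rST 3, and 0.86 and 0.85 between elST 2 and those libraries. elST 3 reached 0.41 to 0.47 with the 3 rST libraries, 0.48 with elST 1 and 0.70 with elST 2. These are descriptions across loci of single libraries, and loci are not replicates.

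The same measure was taken against the other germ cell types of the series. rST 1 and elST 1 had r of 0.95 and 0.93 with priSG-A replicate 2, a day 6 library, and 0.94 each with plpSC replicate 2 from day 14. With plpSC replicate 3 they had 0.17 and 0.19. elST 3 had 0.96 and 0.98 with pacSC replicates 1 and 2 from day 21, which was above its r with any rST or elST library. With pacSC replicate 3 it had 0.48. elST 2 had 0.96 with plpSC replicate 3 but 0.12 and 0.11 with plpSC replicates 1 and 2. rST 3 had 0.94 with pacSC replicate 3 but 0.41 and 0.42 with pacSC replicates 1 and 2. The replicates of plpSC and of pacSC thus also differed strongly, and their labels are no firm reference for stage. The libraries labelled rST 1 and elST 1 thus went against their labels. The library labelled elST 3 was nearer to pacSC replicates 1 and 2 and to priSG-A replicate 3 (0.81) than to another elST library. The library labelled elST 2 was nearer to plpSC replicate 3 than to any rST or elST library. Whether these labels are right, or those of the libraries they resembled, was not tested. Every library is named below as labelled, and counts and medians between the types are given with and without the libraries that move them.

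**Figure D1:**
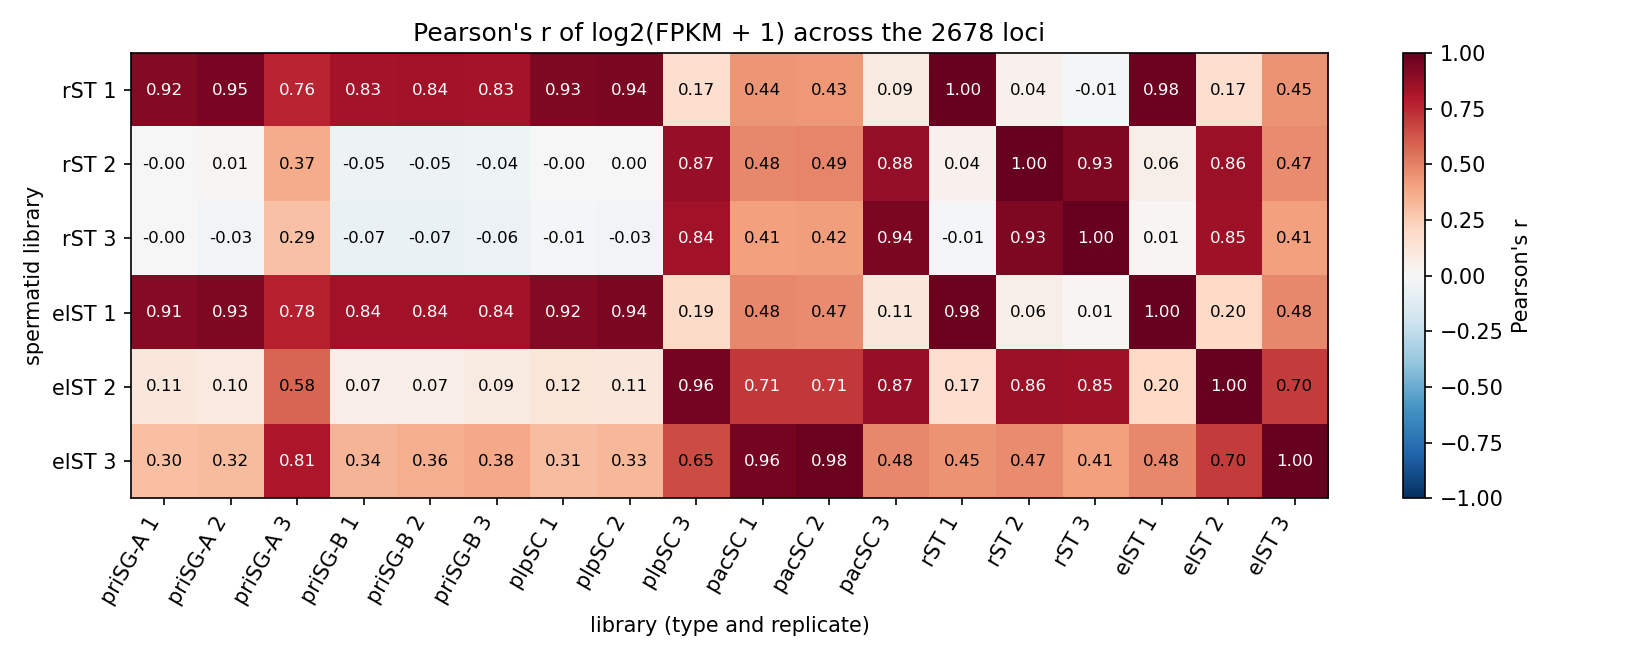
Pearson's r of log2(FPKM + 1) across the 2678 loci, with the 6 rST and elST libraries in rows and all 18 libraries of the series in columns. rST 1 and elST 1 share r of 0.98 and are near 0 to 0.20 with rST 2, rST 3 and elST 2, and elST 3 is closest to pacSC 1 and pacSC 2.

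None of the 84 coding markers chosen for germ and somatic cells of the testis is itself a row of the table, so the labelled types could be checked only through loci whose exons overlap them. Of 15 elongating spermatid markers, 2 had such a locus, and their summed level was 2.497, 4539 and 3176 FPKM in rST 1, 2 and 3 and 3.76, 877 and 75.6 FPKM in elST 1, 2 and 3. In rST 2, rST 3, elST 2 and elST 3 nearly all of it came from the locus across Tnp1. The loci across round spermatid markers (3 loci for 12 markers) summed to 7.37, 45.7 and 36.7 FPKM in rST and to 5.65, 60.6 and 25.0 FPKM in elST. Loci across pachytene markers (2 loci for 9 markers) summed to 0.138, 4.19 and 1.29 FPKM in rST and to 0.235, 4.49 and 6.64 FPKM in elST, with the highest sum in elST 3. The single loci across a Sertoli marker (Dhh) and a peritubular marker (Tagln) stayed at 1.57 to 9.51 and 0.656 to 4.35 FPKM over the 6 libraries, and the 7 loci across spermatogonial markers, 1 of them a member, summed to 1.32 to 3.10 FPKM. The single locus across a Leydig cell marker was no member and had at most 0.668 FPKM, and no locus overlapped a macrophage or an early meiotic marker. The part of the cell mixture in the differences below was not tested. In bulk RNA, fewer cells of a type and less RNA per cell cannot be told apart.

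The numbers of loci at 1 FPKM or more overlapped between the types, and those at 0.1 FPKM did not. Over the whole table, 1591, 2491 and 2492 loci reached 1 FPKM in rST 1, 2 and 3, and 1695, 2809 and 2683 in elST 1, 2 and 3. The means were 2191 ± 520 and 2396 ± 610 loci (SD, n = 3 each), a difference of 204 loci (exact permutation test, two-sided, p = 0.5). At 0.1 FPKM the difference was 681 loci, with every elST library above every rST library (exact permutation p = 0.1, the smallest that 3 against 3 allows). Inferred depth was 34.4 to 48.9 M fragments in rST and 39.4, 42.4 and 65.1 M in elST 1, 2 and 3. The part of depth in the 0.1 FPKM count was not tested. Without rST 1 the difference at 1 FPKM turned to -95.8 loci.

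No locus passed the test between the types. limma on log2(FPKM + 1), fitted to all 18 libraries over 4117 loci, gave 0 calls at an adjusted p of 0.05 (0% of the loci tested), and the smallest adjusted p was 0.882. At an unadjusted p under 0.05 there were 78 loci, 1.89% of those tested, of which 52 (1.26%) were higher and 26 (0.632%) lower in elST. Of the members, 43 were among them, 29 higher and 14 lower. The median log2 difference, elST minus rST, was 0.17 over all tested loci and 0.18 over the members, and 1568 of the members (58.6%) had a positive one. The sign of the member median depended on single libraries: it was -0.35 without rST 1 (1131 positive), -0.19 without elST 2 and -0.03 without elST 3, and 0.23 with replicate 1 of both types left out. All log2 differences here are of log2(FPKM + 1), so those of low loci are understated. Without rST 1 the count at an unadjusted p under 0.05 was 797 of the 4117 loci (240 higher, 557 lower), again with no adjusted call. With any other single library of the 6 left out it was 12 to 300.

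Separation of the raw values was counted without a test. In 111 members (4.14%) all 3 elST values lay above all 3 rST values, beside 4.25% of all tested loci. In 8 members (0.299%) all 3 elST values lay below, beside 0.243% of all tested loci. The 111 hold 19 members that reached 1 FPKM in no rST library, and the 8 hold 2 that reached it in no elST library. For these the rule of 3 libraries at 1 FPKM makes the types separate by construction. The shares of members were near those of all loci in both directions. Without rST 1 the counts were 536 above (20%) and 716 below (26.7%), beside 24.3% and 19.8% of all tested loci. There, members lay more often below than above, and all tested loci more often above. Members were chosen by their values in the compared libraries themselves, and the tested loci by values across the whole series. This contrast can therefore follow from the rule for members, and no conclusion is drawn from it. Without elST 1 the counts were 656 (24.5%) and 24 (0.896%), beside 22.2% and 1.43%. Without elST 2 they were 250 (9.34%) and 31 (1.16%), beside 10.1% and 1.07%. With replicate 1 of both types left out, 1058 members (39.5%) lay above and 731 (27.3%) below, beside 41.7% and 21% of all tested loci. With 2 libraries a side, separation is far more frequent, and the directions were no longer as unequal.

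2410006H16Rik, a processed transcript on chromosome 11 at chr11:62602877-62604807 that overlaps no coding gene, was one of the 111. It had 23.1, 16.4 and 5.97 FPKM in rST 1, 2 and 3 and 36.6, 47.9 and 84.0 FPKM in elST 1, 2 and 3. Every elST library was above the highest rST library, and elST 3 was the highest of all. Its log2 difference was 1.91 ± 0.71 (SE; limma adjusted p = 0.882). Gm47673 had 44.2, 18.7 and 22.8 FPKM in rST, with 44.5, 51.0 and 86.8 in elST, so that elST 1 lay barely above rST 1. 1500004A13Rik had 9.73, 1.73 and 2.55 FPKM in rST, with 13.3, 7.48 and 13.4 in elST, and here elST 2 lay inside the rST range. Gm11635 (lincRNA) had 0.399, 5.26 and 12.9 FPKM in rST, with 25.3, 15.03 and 166 in elST, a log2 difference of 3.06 ± 1.45 that elST 3 led. 1700048O20Rik had 8.59, 9.38 and 2.99 FPKM in rST, with 14.6, 20.3 and 75.3 in elST, also without overlap.

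The remaining loci with the smallest p among those higher in elST were Gm50163, Gm14167 and Gm49207. Gm50163 lies across Matr3, which encodes a nuclear matrix protein, and had 112, 68.8 and 80.6 FPKM in rST, with 124, 183 and 237 in elST. Gm14167 had 1.76, 0.830 and 1.27 FPKM in rST, with 3.86, 3.32 and 5.65 in elST. Gm49207 had 30.8, 9.62 and 4.004 FPKM in rST, with 38.2, 28.6 and 79.7 in elST. The first pair had no overlap between the types, and in Gm49207 elST 2 lay below rST 1. Their log2 differences were 1.03 ± 0.42, 1.20 ± 0.50 and 1.93 ± 0.80. With replicate 1 of both types left out they were 1.47, 1.40 and 2.74, and those of 2410006H16Rik and Gm11635 were 2.55 and 2.47.

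The largest log2 difference without overlap, 4.12 ± 1.83, belonged to Gm43535, a 164 bp TEC locus inside Lrrc2. It had 7.90 FPKM in rST 1, was listed at 0 in rST 2 and rST 3, and had 8.28, 18.9 and 251 FPKM in elST 1, 2 and 3. Only elST 3 was far from the rest, and with replicate 1 of both types left out the difference was 6.15. The locus is shorter than the inferred fragment length of every library (204 to 214 bp in 5 libraries and 264 bp in elST 3), and the part of length in its value was not tested.

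All 8 members with elST below rST share exon sequence with a coding gene on the other strand. Gm11175 lies across Jund, which encodes an AP-1 transcription factor, at chr8:70699162-70700080. It had 78.7, 90.4 and 93.9 FPKM in rST 1, 2 and 3 and 55.6, 40.3 and 12.3 FPKM in elST 1, 2 and 3, with a log2 difference of -1.49 ± 0.69 (limma adjusted p = 0.882), or -1.99 with replicate 1 of both types left out. The rST libraries were close together and the elST libraries were spread, with elST 3 the lowest. Gm38948, across Bicra, a subunit of a SWI/SNF chromatin remodelling complex, had 1.04, 3.39 and 1.62 FPKM in rST, with 0.265, 0.497 and 0.0725 in elST. Gm13563, across Entr1, had 4.84, 10.4 and 8.48 FPKM in rST, with 4.66, 4.57 and 3.47 in elST. Gm16000 lies across the growth factor gene Pdgfc and had 1.10, 1.39 and 2.39 FPKM in rST, with 0.213, 0.907 and 0.421 in elST. In Gm38948 and Gm16000 no elST library reached 1 FPKM, so the rule for members fixed their separation in advance. The other 4 were Gm36569 (across Fam198b), Gm42596 (Fbrsl1), N4bp2os (N4bp2) and Gm50169 (Chmp1b). Because the kit does not mark strand, the values of all 8 may hold reads of the coding partner.

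Other members with small p and lower values in elST overlapped between the types. Gm45474 had 0.527, 3.94 and 3.84 FPKM in rST, with 0.128, 1.21 and 0.214 in elST. 1700021J08Rik, across Hectd3, had 0.502, 19.4 and 4.07 FPKM in rST, with 0.763, 1.24 and 0.297 in elST. Gm15647, opposite Bicc1, had 0.109, 10.5 and 9.79 FPKM in rST, with 0.210, 1.28 and 0 in elST. In these 3, rST 1 lay inside the elST range, and rST 2 and rST 3 lay above it.

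Each elST library was next set against the rST libraries on its own, counting members at least 2-fold above the highest or below the lowest of them on the log2(FPKM + 1) scale. A count from 1 library has no replicate check. elST 1 had 8 members above and 3 below all 3 rST libraries (0.299% and 0.112%, beside 0.462% and 0.0729% of tested loci). elST 2 had 158 above and 1 below (5.9% and 0.0373%, beside 4.4% and 0.0243%). elST 3 had 381 above and 13 below (14.2% and 0.485%, beside 13.2% and 0.316%). Inside the rST range lay 1842 members in elST 1, 1629 in elST 2 and 1602 in elST 3.

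The counts below depended on rST 1. Against rST 2 and rST 3 only, elST 1 had 345 members above and 1508 below, elST 2 had 216 above and 204 below, and elST 3 had 616 above and 652 below. With rST 1 left out, elST 2 and elST 3 thus had members on both sides in similar number, and elST 1 had mostly members below.

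**Figure D2:**
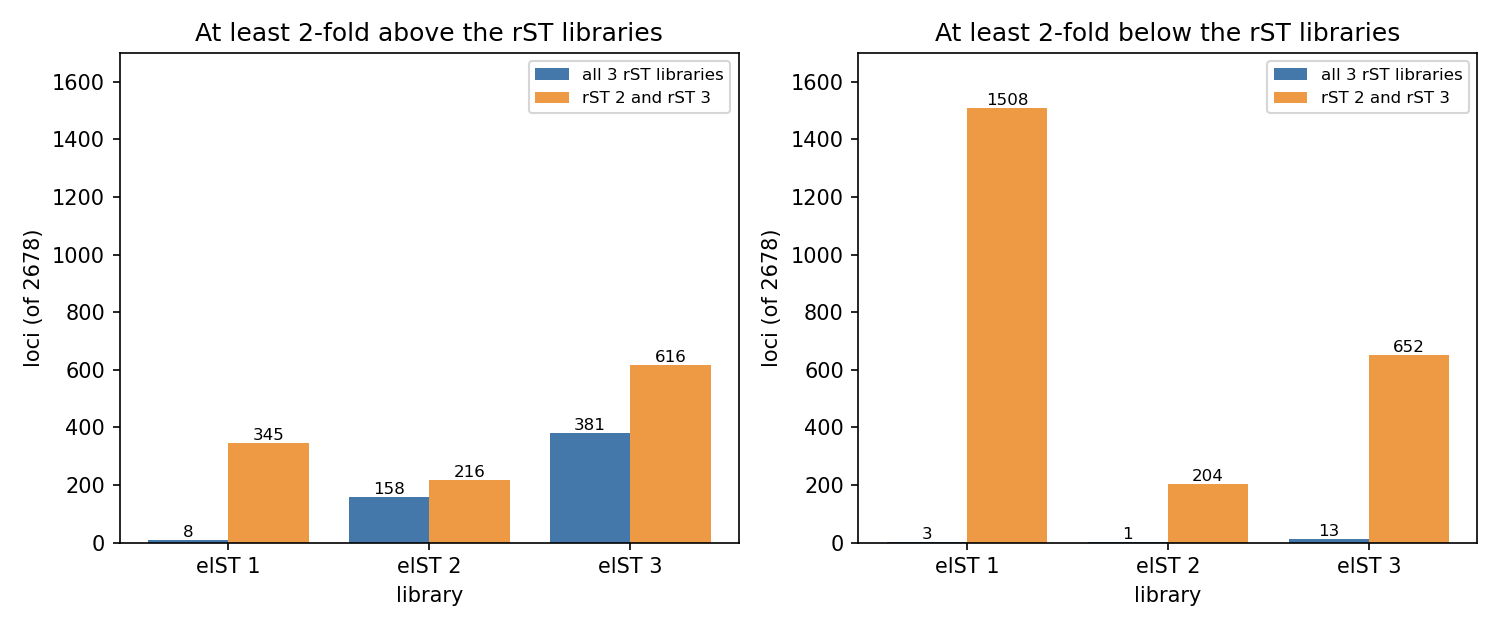
Number of the 2678 loci at least 2-fold above (left) and below (right) the rST libraries in each elST library, on the log2(FPKM + 1) scale; blue bars use all 3 rST libraries and orange bars rST 2 and rST 3. Leaving out rST 1 raised the counts below from 3, 1 and 13 to 1508, 204 and 652.

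The contrast between replicate 1 and the other libraries was followed in 104 members that had 10 FPKM or more in rST 2, rST 3, elST 2 and elST 3 and under 0.5 FPKM in rST 1 and elST 1. These bounds were chosen after the values were seen and support nothing by themselves. Of the 104, 58 (55.8%) bear a RIKEN clone name whose number prefix stands for a testis library, against 27.5% of all members, and 61 were lincRNAs. Within the group, elST 3 was the lowest of the 4 libraries in 71, and elST 2 was below both rST 2 and rST 3 in 56. In 52 of the 104, elST 2 was below both and elST 3 was lower again. The median ratio to the lower of rST 2 and rST 3 was 0.94 in elST 2 and 0.528 in elST 3.

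1700027A15Rik (chr1:72984844-73025507, plus strand) shares exon sequence with Tnp1, the gene of transition protein 1, which is coded on the other strand. Its first RefSeq start window overlaps 124 bases of the Tnp1 exons. It was listed at 0 in rST 1, had 4539 FPKM in rST 2 and 3175 FPKM in rST 3, and had 0.570, 875 and 73.0 FPKM in elST 1, 2 and 3. Both replicates 1 were at or near 0, and elST 2 and elST 3 lay below rST 2 and rST 3. The log2 difference over all libraries was -2.38 ± 3.15, smaller than its error. It was -3.90 with replicate 1 of both types left out and 0.07 without elST 1 alone. Reads of Tnp1 itself may be part of these values.

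The same order held in some loci with no coding partner, most of them picked after their values were seen. 4930571K23Rik (lincRNA, chromosome 7) had 0.0142, 1745 and 1880 FPKM in rST, with 0.385, 411 and 34.0 in elST. 1700016P04Rik (lincRNA, chromosome 6) was listed at 0 in rST 1, had 879 and 875 FPKM in rST 2 and 3, and 0.231, 258 and 47.1 FPKM in elST. In both, rST 2 and rST 3 were close to each other, elST 2 was lower and elST 3 lower again. 1700095K22Rik, another lincRNA, was listed at 0 in both replicates 1, with 935 and 599.8 FPKM in rST 2 and 3 and 170 and 31.1 FPKM in elST 2 and 3. 4930570D08Rik on the X chromosome was at 0 in both replicates 1 and had 2047 and 2335 FPKM in rST 2 and 3 against 571 and 476 FPKM in elST 2 and 3. Here elST 2 and elST 3 were near each other, unlike in the lincRNAs above.

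The order was mixed among loci across spermatid genes. Of the 5 members across round or elongating spermatid markers, 2 had elST 2 below rST 2 and rST 3 and elST 3 lower again, the Tnp1 locus and 4930557K07Rik. The other 3 did not: Tmem147os, across Gapdhs, the sperm form of a glycolytic enzyme, had 2.497, 0.982 and 1.007 FPKM in rST, with 3.19, 1.98 and 2.52 in elST. Gm6225, across Crem, had 0.518, 1.99 and 2.31 FPKM in rST, with 0.879, 2.08 and 1.63 in elST. Chaperone loci picked after their values were seen had the order. 1700031F10Rik, antisense to the testis chaperone gene Dnajb8, had 0.0763, 737 and 658 FPKM in rST, with 0.443, 164 and 14.9 in elST. Gm10501, across Hspa1l, a germ cell member of the HSP70 family, had 1.41, 779 and 1033 FPKM in rST, with 1.87, 280 and 18.6 in elST. 4930557K07Rik lies across Acrbp, which encodes a binding protein of acrosin, and had 0.170, 15.7 and 9.09 FPKM in rST, with 0.164, 2.96 and 0.770 in elST. Gm44597, on the same strand as Acrbp, was the third of those without it and had 6.69, 28.1 and 25.3 FPKM in rST, with 4.61, 55.6 and 22.6 in elST. Outside the 104, 1700009J07Rik went furthest in this direction among these loci, with 621 and 756 FPKM in rST 2 and 3 and 143 and 5.94 FPKM in elST 2 and 3, and it was at 0 in both replicates 1.

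Over all 737 testis clone members, the level per locus did not have 1 direction. The median was 0.0586, 6.51 and 6.59 FPKM in rST 1, 2 and 3 and 0.145, 7.04 and 4.29 FPKM in elST 1, 2 and 3. Positive log2 differences were found in 346 and negative ones in 391, with a median of -0.05 beside 0.18 for all members. Without rST 1 the medians were -0.93 and -0.35, and 169 were positive. Their share of the summed FPKM was 0.311%, 31.1% and 44.0% in rST and 0.506%, 33.3% and 11.1% in elST. The 5 highest members of each library held 93.6%, 44.4% and 24% of that sum in rST and 90.9%, 17.9% and 60.6% in elST. The shares thus depend on a few very abundant loci and are not levels of the testis clones. The means were 25.14% ± 22.4 and 14.97% ± 16.7 (SD, n = 3 each; exact permutation p = 0.8, two-sided), so the types differed by less than their spread. With the most abundant member, Gm37750, taken out of the sum, they were 27.41% ± 23.2 and 15.09% ± 16.6 (exact permutation p = 0.4). The 195 members with other RIKEN clone names had 160 positive differences (82.1%) and a median of 0.45 (137 and 0.57 without rST 1), with 5 higher and 2 lower at an unadjusted p under 0.05.

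**Figure D3:**
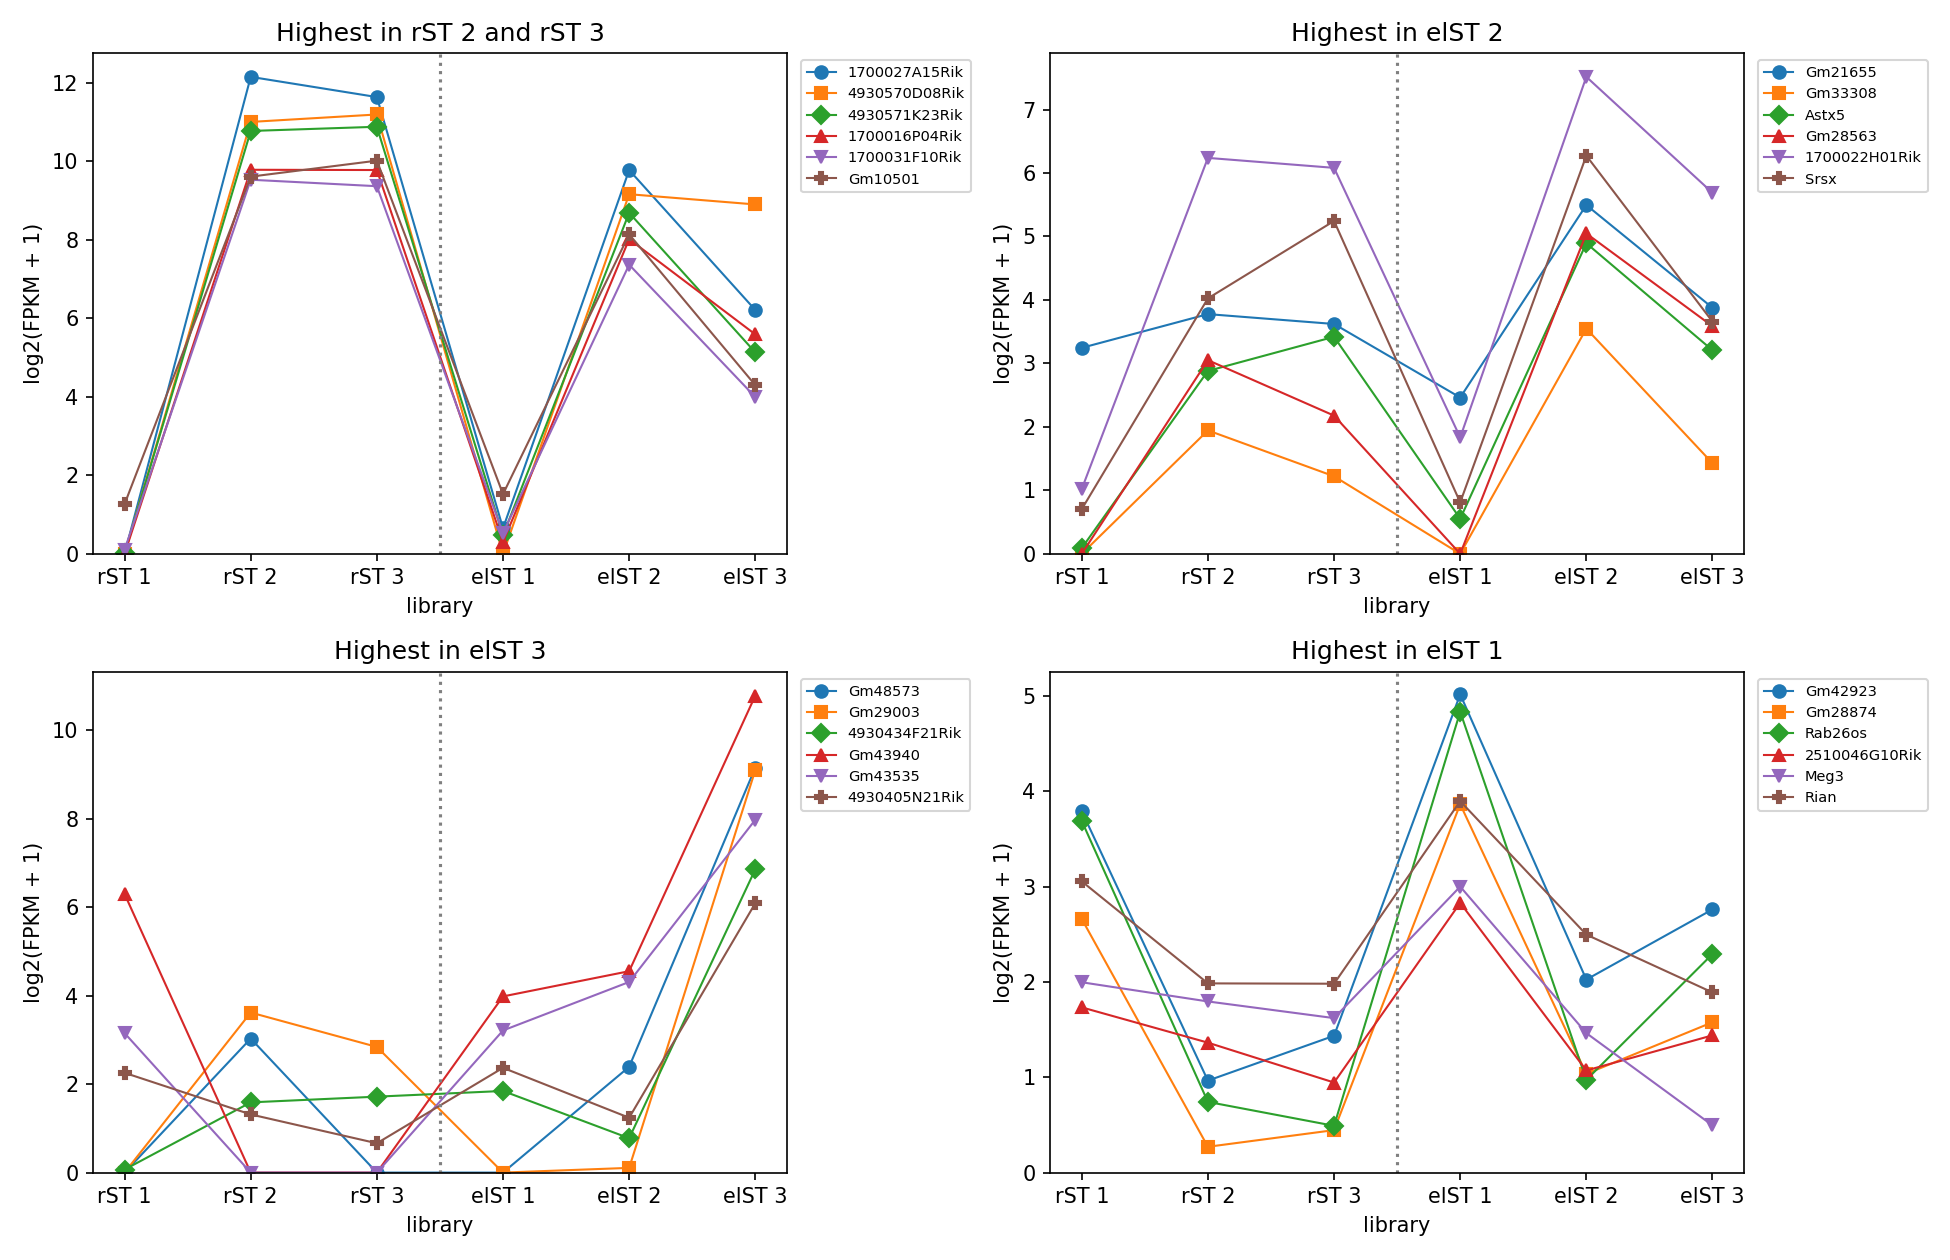
log2(FPKM + 1) of named loci in the 6 libraries, by panel: loci highest in rST 2 and rST 3, in elST 2, in elST 3 and in elST 1; the dotted line divides rST from elST, and lines join the values of 1 locus. The first set is low in rST 1 and elST 1 and lower in elST 2 and elST 3 than in rST 2 and rST 3, and each other panel peaks in its own library.

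Of the 158 members above rST in elST 2, 61 (38.6%) were testis clones, beside 27.5% of all members, and 10 (6.33%) lay on the X chromosome, beside 1.61%. 1700022H01Rik, a bidirectional promoter transcript on chromosome 10, had 1.03, 74.5 and 66.7 FPKM in rST, with 2.56, 182 and 50.6 in elST. Gm33308, a lincRNA whose window is shown above, was listed at 0 in both replicates 1 and had 2.85 and 1.33 FPKM in rST 2 and 3 and 10.7 and 1.69 FPKM in elST 2 and 3. Gm28563 was also at 0 in both replicates 1, with 7.29 and 3.52 FPKM in rST 2 and 3 and 32.1 and 11.01 FPKM in elST 2 and 3. In all of these elST 2 was the highest library. Gm21655 had 8.48, 12.7 and 11.3 FPKM in rST, with 4.51, 44.1 and 13.7 in elST, and it was both the furthest above the other libraries in elST 2 and among the furthest below in elST 1. The member that was lower in elST 2 than in any rST library by 2-fold was AY036118, a locus of ribosomal RNA sequence.

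All 10 X-linked members of that group came from the Astx region, a run of near-identical copies of spermatid transcripts on the X chromosome. Astx5 had 0.0649, 6.37 and 9.70 FPKM in rST, with 0.467, 28.7 and 8.24 in elST. Astx3 had 0.0603, 4.01 and 6.29 FPKM in rST, with 0.363, 17.5 and 3.82 in elST, and Srsx had 0.629, 15.3 and 36.9 FPKM in rST, with 0.754, 76.3 and 11.6 in elST. In each, elST 2 was above and elST 3 was inside the rST range. Astx1a, Astx1b and Astx1c had 4.68, 4.69 and 4.68 FPKM in elST 2. The counting could have split reads among such copies, so their separate values are uncertain. Of the 27 X-linked members outside that region, none was 2-fold above rST in elST 2 or elST 3. Autosomal members were above in 5.58% in elST 2 and in 14.4% in elST 3, and X-linked members in 23.3% and in 0 of 43.

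Some X-linked loci outside the Astx region were among the high rST loci. BC061195 had 0.356, 861 and 761 FPKM in rST, with 1.38, 242 and 84.4 in elST, and 1700003E24Rik had 0.214, 734 and 728 FPKM in rST, with 1.10, 202 and 69.6 in elST. Gm27192 went the other way, with 61.9 and 72.2 FPKM in rST 2 and 3 and 136 and 119 FPKM in elST 2 and 3. Of the 18 Y-linked members, 2 were above rST in elST 2 and 3 in elST 3.

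**Figure D4:**
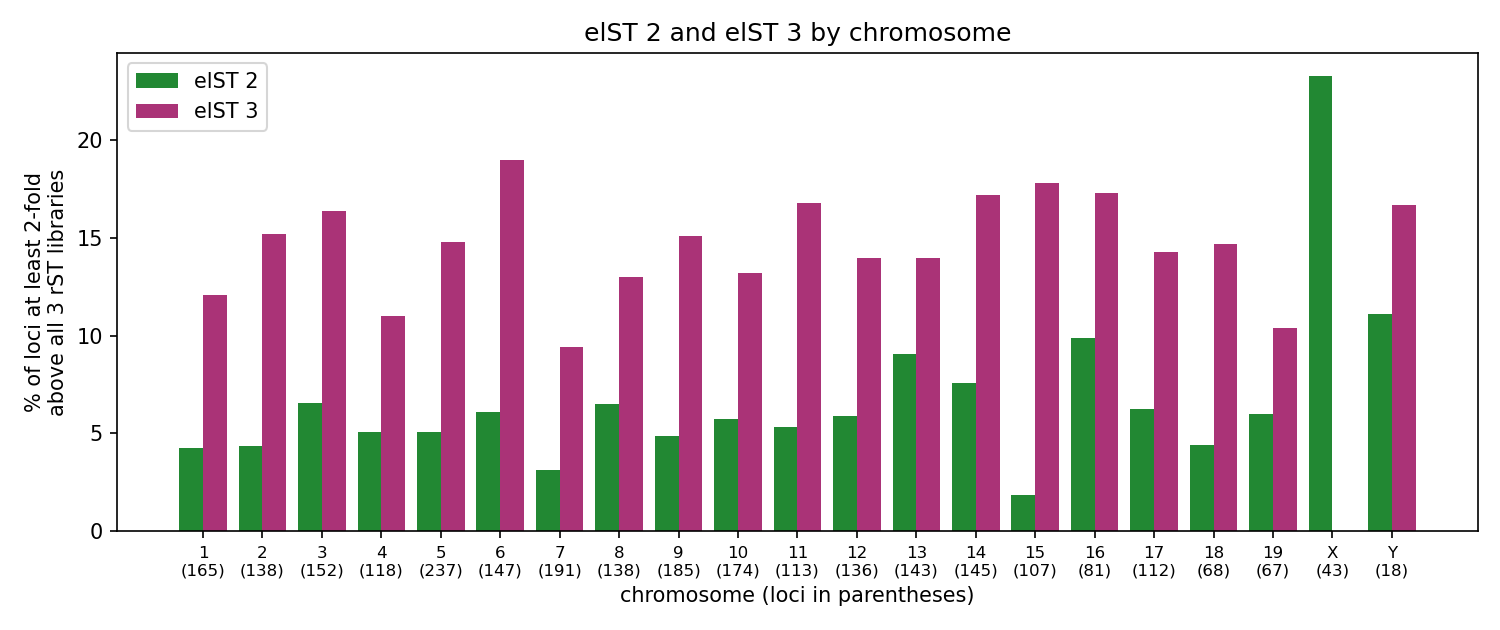
Percent of the loci on each chromosome that were at least 2-fold above all 3 rST libraries in elST 2 (green) and elST 3 (purple), with the number of loci in parentheses. The X chromosome has 23.3% in elST 2, all from the Astx region, and 0 in elST 3.

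The 381 members above rST in elST 3 were spread over autosomes and were of mixed type: 151 lincRNAs, 105 antisense loci and 47 TEC loci, with testis clones at 27.6%, beside 27.5% of all members. Gm29003 on the Y chromosome had 11.3 and 6.17 FPKM in rST 2 and 3, was at 0 in both replicates 1, and had 0.0765 FPKM in elST 2 and 548 FPKM in elST 3. In the day 21 pacSC libraries it had 39.1, 186 and 14.5 FPKM. 4930434F21Rik, across Tmem45b, had 0.0492, 2.01 and 2.29 FPKM in rST, with 2.595, 0.714 and 115 in elST, and 95.3 and 133 FPKM in pacSC replicates 1 and 2, the libraries to which elST 3 was closest. Gm48573, a 177 bp locus across Syndig1l, was at 0 in rST 1, rST 3 and elST 1, had 7.18 FPKM in rST 2, and had 4.25 FPKM in elST 2 and 571 FPKM in elST 3. In pacSC it had 559, 343 and 9.43 FPKM. For these 3 loci the elST 3 level was near or above the level of pacSC replicates 1 and 2, and the other elST libraries were at 4.25 FPKM or less.

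Some of the highest values in elST 3 came from short loci. Gm43940, a 165 bp TEC locus inside Pik3c2g, had 77.8 FPKM in rST 1, was at 0 in rST 2 and rST 3, and had 14.8, 22.5 and 1767 FPKM in elST 1, 2 and 3. Rmrp, the RNA of the RNase MRP ribonucleoprotein, had 36309, 1417 and 253 FPKM in rST, with 57030, 2855 and 55398 in elST. Terc, the RNA template of telomerase, had 52.4 and 1.32 FPKM in rST 1 and 2, was listed at 0 in rST 3, and had 83.0, 2.55 and 37.9 FPKM in elST. Both were high in rST 1, elST 1 and elST 3 and low in the other libraries.

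The most abundant member, Gm37750, is a 129 bp TEC locus on chromosome 9. It had 132253 FPKM in rST 1, 14549.9 FPKM in rST 2 and 61741 FPKM in elST 1, and was listed at 0 in rST 3, elST 2 and elST 3. Gm28967, a 281 bp locus across Ncapd2, a condensin subunit gene, had 1772, 225 and 538 FPKM in rST, with 2776, 903 and 2316 in elST. Gm10076 had 1479, 4079 and 1358 FPKM in rST, with 1756, 1608 and 3108 in elST. The last had a log2 difference of 0.03 ± 0.65 (-0.26 to 0.54 with 1 library left out), and Gm37750 was at 0 in libraries of both.

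AY036118 and its neighbours on chromosome 17 did not share 1 order. AY036118 had 11750, 13911 and 6509 FPKM in rST 1, 2 and 3 and 9351, 1998 and 7.41 FPKM in elST 1, 2 and 3. Gm42418, which overlaps it on the other strand, had 1004.5, 1024 and 264 FPKM in rST, with 870, 177 and 32.2 in elST. In both, elST 3 was the lowest library. Gm26917, which lies next to them, had 2903, 82.5 and 63.9 FPKM in rST, with 2497, 211 and 468 in elST, and here elST 3 was inside the rST range. elST 3 also had the greatest inferred depth, 65.1 M fragments against 34.4 to 48.9 M, and the longest inferred fragments. The part of these differences in the elST 3 counts was not tested. The other members below rST in elST 3 included the imprinted gene Meg3, Mir99ahg, Gm11175 and Gm36569.

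Some loci stood above rST in both elST 2 and elST 3. Both counts use the same rST libraries, so the values are given side by side. Gm31072 (lincRNA, chromosome 14) had 2.95, 177 and 89.3 FPKM in rST, with 6.29, 422 and 1425 in elST. Gm11837, across Necab1, had 29.8, 158 and 100.04 FPKM in rST, with 27.4, 424 and 666 in elST. Gm29406 on the Y chromosome was at 0 in both replicates 1, with 53.4 and 38.8 FPKM in rST 2 and 3 and 149.5 and 565 FPKM in elST 2 and 3. In each, elST 1 and rST 1 were the lowest libraries, and elST 3 was the highest library. Gm29050, across Ldhal6b, a testis lactate dehydrogenase-like gene, had 9.13, 128 and 93.7 FPKM in rST, with 9.65, 280.1 and 283 in elST.

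elST 1 and rST 1 had near-equal values: 2640 members (98.6%) lay within 2-fold of each other, and 364 of the 384 (94.8%) with 5 FPKM or more in either. The share within 2-fold was 72.6% for elST 2 against rST 2 and 45.6% for elST 3 against rST 2. Among members with 5 FPKM or more in either library these shares were 58.2% (833 of 1432) and 29.5% (457 of 1547). Rab26os had 11.9, 0.672 and 0.405 FPKM in rST, with 27.5, 0.963 and 3.90 in elST. Gm42923, opposite the growth factor gene Fgf2 without a shared exon, had 12.8, 0.952 and 1.70 FPKM in rST, with 31.4, 3.07 and 5.78 in elST. In both, rST 1 was the second-highest library. A set of 12 members had 10 FPKM or more in rST 1 and elST 1 and under 2 FPKM in rST 2, rST 3 and elST 2, by bounds chosen after the values were seen. It held the snoRNA host genes Zfas1, Snhg12 and Snhg20, Rab26os, and 4930558J22Rik and Gm20628, which lie across histone genes. 4930558J22Rik had 42.2, 0.661 and 0.637 FPKM in rST, with 56.5, 1.12 and 19.6 in elST.

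The imprinted gene Meg3 had 2.99, 2.47 and 2.07 FPKM in rST, with 7.0, 1.76 and 0.409 in elST, so that elST 1 was the highest and elST 3 the lowest of the 6. Its neighbour Rian, also expressed from the maternal copy, had 7.31, 2.96 and 2.95 FPKM in rST, with 13.9, 4.64 and 2.70 in elST. Mir99ahg, a microRNA host gene, was lowest in elST 1 and had 12.8, 23.1 and 43.1 FPKM in rST, with 5.31, 14.1 and 5.61 in elST.

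Host genes of small nucleolar RNAs, whose introns release the guides of ribosomal RNA modification, shared 1 direction of difference without passing the test. The table holds 27 rows of 19 such genes. Of these rows 16 were members, from 15 genes because Snhg14 enters as 2 rows, and all 16 had a positive log2 difference, with a median of 0.94 beside 0.18 for all members (1.58 and -0.35 without rST 1). None passed the test, none had an unadjusted p under 0.05, and only Snhg3 had all elST values above all rST values. Snhg3 had 2.79, 3.33 and 0.450 FPKM in rST, with 4.35, 5.14 and 16.2 in elST. The median of the 16 was 9.1, 1.88 and 1.34 FPKM in rST 1, 2 and 3 and 10.6, 3.53 and 11.2 FPKM in elST 1, 2 and 3. By these medians the list was high in rST 1, elST 1 and elST 3 and low in rST 2, rST 3 and elST 2. Rmrp and Terc had the same split of libraries. Some members of the list did not have it, among them Snhg3 and Snhg8, in which elST 2 was above both rST 1 and elST 1.

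Gas5, the most abundant of them in rST 1, had 86.2, 32.4 and 29.9 FPKM in rST, with 106, 47.8 and 68.7 in elST, a log2 difference of 0.67 ± 0.55. Snhg1 had 34.5, 2.83 and 1.99 FPKM in rST, with 42.4, 3.69 and 13.6 in elST. Zfas1 had 22.1, 1.23 and 0.566 FPKM in rST, with 24.9, 1.96 and 6.71 in elST. In all 3 the ranges of the types overlapped, and elST 1 and rST 1 were the 2 highest libraries. Snhg8 stayed at 23.4 FPKM or more in every library and had 42.5, 26.9 and 23.4 FPKM in rST, with 43.6, 50.7 and 39.3 in elST. Snhg15, whose window is shown above, had 3.75, 0.727 and 0.264 FPKM in rST, with 7.41, 0.980 and 3.22 in elST.

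**Figure D5:**
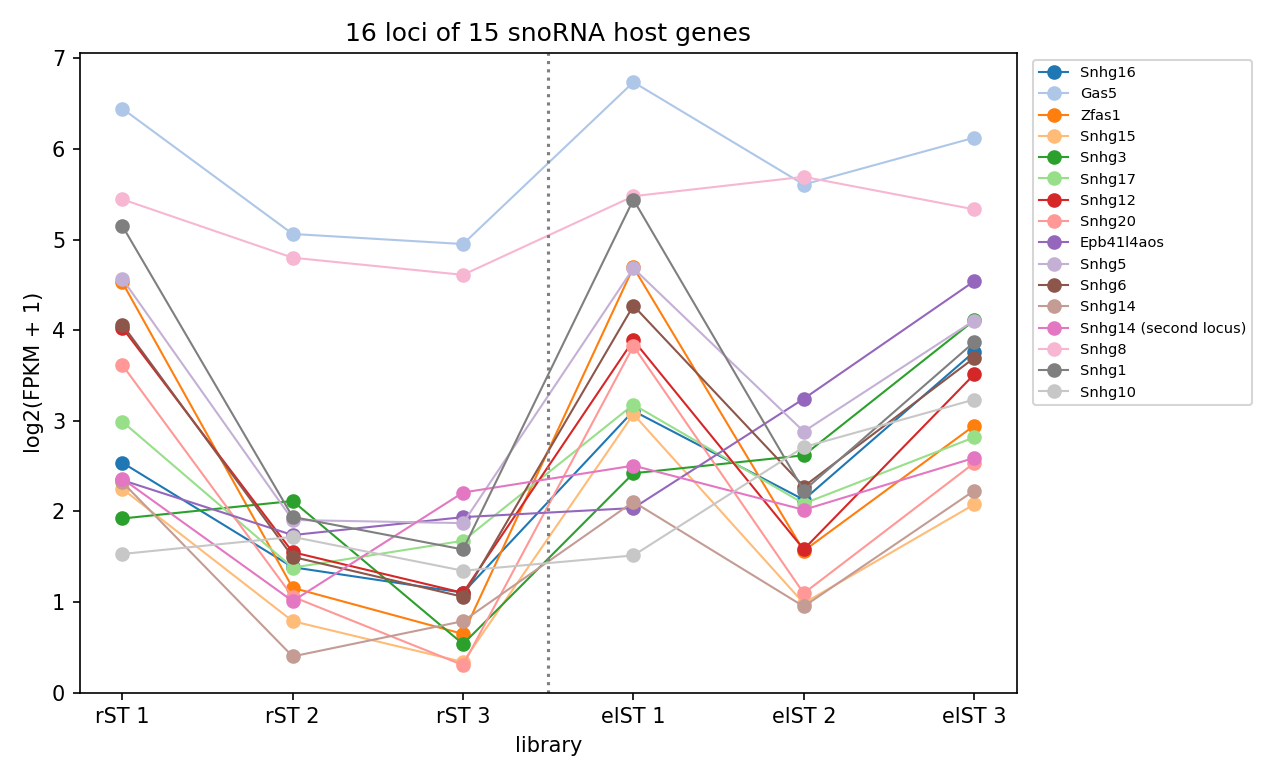
log2(FPKM + 1) of 16 loci of 15 snoRNA host genes in the 6 libraries; the dotted line divides rST from elST, and lines join the values of 1 locus. Most lines are high in rST 1, elST 1 and elST 3 and low in rST 2, rST 3 and elST 2, and all 16 have a higher mean log2 value in elST.

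The other lists had no common direction. Of 8 microRNA host genes, 4 differences were positive and 4 negative (median -0.18), and of 8 loci of 7 imprinted noncoding genes, again with Snhg14 as 2, 6 were positive and 2 negative (median 0.38). Of 15 well-known long noncoding RNAs, some of which are also in the other lists, 11 were positive and 4 negative (median 0.12), and of 100 opposite-strand loci named after coding genes 51 were positive and 49 negative (median 0.06). Without rST 1 these medians were -0.38, 0.76, 0.42 and -0.60. No member of these lists passed the test. Pvt1, the neighbour of Myc, had 0.264, 20.8 and 10.9 FPKM in rST, with 0.433, 10.7 and 7.43 in elST, and thus had the order of the loci highest in rST 2 and rST 3, with elST 2 near rST 3. Malat1, an abundant nuclear RNA, had 1140.4, 129 and 287 FPKM in rST, with 763, 179 and 140.3 in elST. Tug1 had no value below 15.7 FPKM and had 34.5, 18.6 and 15.7 FPKM in rST, with 25.1, 16.1 and 29.4 in elST.

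Members just crossing detection gave a last view of the types. 19 members reached 1 FPKM in no rST library, and 2 in no elST library. Of the 19, Gm43809 had 0.737, 0.634 and 0.994 FPKM in rST, with 4.15, 1.85 and 7.16 in elST, and Gm47708 had 0.512, 0.854 and 0.437 FPKM in rST, with 1.65, 1.76 and 8.75 in elST. The 2 were Gm16000 and Gm38948, described above. The rule of 3 libraries at 1 FPKM makes the elST and rST values of these loci separate by construction.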

How the data were processed

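RNA was measured in 18 libraries of 6 germ cell types, 3 per type, and the 3 rST and 3 elST libraries were compared. The values are FPKM as the authors deposited them in 1 table. The submitters' processing notes name HISAT2, StringTie and mm10, with no versions. For annotation, strand setting and filters, the authors' choices were not given in the sources used here. Gene types and overlaps came from GENCODE M21, in which 13191 of the 13218 identifiers were found, and promoter windows from RefSeq (GRCm38.p6).

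limma 3.58.1 in R 4.3.3 was fitted to log2(FPKM + 1) with its trend and robust options, two-sided, with 1 coefficient per type. The 4117 loci at 1 FPKM or more in at least 3 of the 18 libraries were tested, with Benjamini-Hochberg adjustment over all of them and a threshold of 0.05. Single values per library were tested by exact permutation. In data simulated for this comparison over 4117 loci, the fit recovered 8%, 40%, 80% and 90% of loci shifted by log2 values of 1, 2, 4 and 6, with 2 false calls. Whether these shares hold where whole libraries of the same type differ as strongly as they did here was not tested. Depth and fragment length were inferred from the FPKM steps of single-exon loci, where 96.2 to 97.3% of low values were whole within 0.02. No read totals were used, and no counting intervals are given.

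Members, gene lists and tests were chosen with earlier results of these data known. The text names the 6 loci each way with the smallest p, the 6 each way with the largest difference without overlap at 5 FPKM or more, the 6 furthest above and 4 furthest below the other libraries in each elST library, the 8 most abundant, list members at 5 FPKM or more and loci across marker exons. Some of those loci enter only the counts. 4930571K23Rik, 1700016P04Rik, 1700095K22Rik, 1700031F10Rik, Gm10501, 1700009J07Rik, BC061195, 1700003E24Rik, Gm27192, 1700022H01Rik, Srsx, Gm31072, Gm11837, Gm29406, Gm29050, Rian, Snhg15, Gm43809, Gm47708 and the remaining loci below rST were chosen after their values were seen. Alternatives were another pseudocount, other filters, other scaling, leaving out libraries and a replicate block. Tables were made with Python 3.11.15, pandas 2.3.3, numpy 2.4.6 and scipy 1.17.1, and figures with matplotlib 3.10.9.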

Additional observations from a re-analysis of the deposited data

How the results depend on the processing

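No member was called under any alternative. Outside the members, 1 locus was called with no filter and 1 (Gm44145) without elST replicate 1; the other single-library omissions gave 0. Loci at an unadjusted p under 0.05 (78 of 4117 tested) numbered 21 of 1744 with a 5 FPKM filter and 429 of 12224 with no filter. In the 6 libraries alone there were 2 of 2678. Of 4117 tested, 127 were found without trend and robust estimation and 26 with the AY036118 level as a term. Quantile normalization and the fits with libraries left out also tested 4117. Quantile normalization gave 160, split 9 higher and 151 lower, and moved the median difference of tested loci from 0.17 to 0.04. Leaving out 1 library gave 12 (elST replicate 3) to 797 (rST replicate 1), leaving out replicate 1 of both types 496, and, chosen after seeing the data, leaving out elST replicate 2 as well 854. The number of loci at 1 FPKM differed by -95.8 to 555 loci with 1 library left out, and by -2.33 without elST replicate 2. The following were added after seeing the data. The member median (0.18) ranged from -0.35 (without rST replicate 1) to 0.52 (without elST replicate 1) and was negative also without elST replicate 2 (-0.19) or 3 (-0.03). Members without overlap (111 above, 8 below) ranged over 138 to 656 and 10 to 716 with 1 library left out, and numbered 1058 and 731 without replicate 1 of both types. With 1 library left out, the shares were 5.15% to 24.5% and 0.373% to 26.7% of members. Those of all tested loci were 5.1% to 24.3% and 0.364% to 19.8%. The testis clone share differed by -22.6 (without rST replicate 1) to -0.737 percentage points (without rST replicate 3). The cause of these shifts was not tested.

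The same-numbered libraries deviated together with r of 0.83, 0.81 and 0.02. rST 3 and elST 2, which differ in number, had r of 0.85, above the 0.81 of the libraries numbered 2. The numbers were therefore not taken as pairs. The replicate block, fitted to the 2678 members, gave 377 loci at an unadjusted p under 0.05 (154 higher, 223 lower). It gave 0 calls, with a smallest adjusted p of 0.344.

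Counts for single libraries follow in the order elST 1, 2 and 3. Members above all rST libraries (8, 158 and 381) numbered 15 and 274 in elST 1 and 2 with a pseudocount of 0.1. They numbered 14, 94 and 227 with quantile normalization, 2, 86 and 156 with a 5 FPKM filter and 0, 1 and 136 at 4-fold. Members below (3, 1 and 13) numbered 61, 4 and 35 with a pseudocount of 0.1 and 0, 0 and 4 at 4-fold. With quantile normalization those below were 9 and 58 in elST 2 and 3. With 1 rST library left out, the counts above ranged over 8 to 345, 216 to 320 and 420 to 616, and those below over 3 to 1508, 4 to 204 and 18 to 652. The 16 snoRNA host gene loci kept positive differences in every setting that tested them, with medians of 0.44 to 1.95. With the 5 FPKM filter only 15 of them were tested, and all 15 were positive. Of the 85 members named in the text, 54 kept the sign of their log2 difference in every setting run and 31 changed it in at least 1, in 83 of 1426 values. Among those whose difference is printed, 2 changed sign. 1700027A15Rik ranged from -6.35 to 0.07 with 1 library left out. Gm10076 ranged from -0.26 to 0.54, and was -0.48 with the AY036118 level as a term, -0.07 without replicate 1 of both types and -0.55 without elST replicate 3 as well. Depth limits low loci most, those near 0.1 FPKM more than those near 1 FPKM.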
